A study of Mus musculus with 7 samples.

Results

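Baiap3 and 9 genes of the cytotoxic granule exocytosis machinery are described here in natural killer (NK) cells of mouse spleen that lack or retain the homeobox transcription factor gene Hhex. The 10 genes (Baiap3, Unc13a, Unc13b, Unc13d, Rab27a, Stx11, Stxbp2, Vamp7, Lamp1 and Lyst) were taken by symbol. Baiap3 was picked from its measured fall between the 2 genotypes, so its values below are a description with no test. The other genes were chosen by their role, as Munc13 homologs or as genes of granule docking and fusion. That choice was made with earlier results of these data known. Of the 10, 9 had a row among the 53379 genes of the count table, and Vamp7 was not analysed here. Of those 9, 7 passed the filter on low counts, while Unc13a and Unc13b did not.

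RNA sequencing covered 4 libraries labelled Hhex KO and 3 labelled Cre control, all from C57BL/6 mice. Cells came straight from the spleen by sorting for CD45, NK1.1, NKp46 and CD49b without CD3. The control label names Cre, so the controls carry the recombinase; the sources used here name neither the promoter that drives it nor the age of the mice. The design text calls the libraries biological replicates, without saying whether each is 1 animal or a pool. A p-value here therefore sets the difference between the groups against the spread of these libraries. Whether that is the spread between single animals is not known.

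NK cells kill by moving granules of perforin and granzymes to the contact with a target and fusing them with the plasma membrane. In lymphocytes the small GTPase Rab27a docks the granule, Munc13-4 (encoded by Unc13d) primes it, and syntaxin 11 with Munc18-2 (Stx11 and Stxbp2) carries out the fusion. Inherited loss of UNC13D, STX11 or STXBP2 causes familial haemophagocytic lymphohistiocytosis in humans, loss of RAB27A causes Griscelli syndrome and loss of LYST causes Chediak-Higashi syndrome. BAIAP3 is a C2-domain protein with Munc13 homology, studied mostly in neuroendocrine cells, where it acts in traffic between endosomes, the trans-Golgi network and dense-core vesicles.

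The bases upstream of the annotated start were read for Baiap3, for Stx11, whose levels lay lower in every Hhex KO library, and, for contrast, for Rab27a and Lamp1, whose groups overlapped. The sequences are RefSeq promoter windows on GRCm38.p6 (8 of the 10 genes had one), printed 5′ to 3′ on the gene's strand and ending before the gene's first annotated base. Capitals mark exact matches, on either strand, to the motifs searched: the homeobox cores TAATTA and ATTAA, the T-box element AGGTGTGA, the RUNX element TGTGGT, the ETS element CCGGAAGT and the E-box CACGTG. No 2 matches shown overlap; in the Lamp1 stretch the RUNX match directly follows an E-box.

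Baiap3, chr17:25256365-25256614, minus strand: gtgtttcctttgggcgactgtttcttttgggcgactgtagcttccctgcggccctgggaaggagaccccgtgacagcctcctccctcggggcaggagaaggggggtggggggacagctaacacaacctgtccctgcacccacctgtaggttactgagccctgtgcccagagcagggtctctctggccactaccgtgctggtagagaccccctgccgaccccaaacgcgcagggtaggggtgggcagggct
Stx11, chr10:12964299-12964509, minus strand: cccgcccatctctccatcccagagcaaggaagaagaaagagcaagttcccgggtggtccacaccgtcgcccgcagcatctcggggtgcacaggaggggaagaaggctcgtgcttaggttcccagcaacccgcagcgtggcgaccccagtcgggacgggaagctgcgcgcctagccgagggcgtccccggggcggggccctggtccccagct
Rab27a, chr9:73044560-73044809, plus strand: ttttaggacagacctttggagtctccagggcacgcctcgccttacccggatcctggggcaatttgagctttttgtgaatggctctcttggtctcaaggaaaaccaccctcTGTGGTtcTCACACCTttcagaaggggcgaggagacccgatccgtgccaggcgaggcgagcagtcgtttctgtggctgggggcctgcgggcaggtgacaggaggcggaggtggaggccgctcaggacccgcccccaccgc
Lamp1, chr8:13158911-13159160, plus strand: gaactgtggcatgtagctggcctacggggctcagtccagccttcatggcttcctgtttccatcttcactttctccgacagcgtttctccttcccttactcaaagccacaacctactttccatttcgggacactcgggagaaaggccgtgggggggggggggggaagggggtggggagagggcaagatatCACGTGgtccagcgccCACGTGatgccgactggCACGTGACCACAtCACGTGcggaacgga

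Neither the Baiap3 nor the Stx11 stretch held any of these 6 strings. The Rab27a stretch, the upstream one of the gene's windows, held 1 RUNX and 1 T-box match. The other Rab27a window, not printed here, held an ATTAA match and an E-box. The Lamp1 stretch held 4 E-boxes and 1 RUNX match. Among 32851 RefSeq promoter windows of 300 bases, which also cover the first bases of each gene, 5.29% held TAATTA, 27.1% ATTAA, 1.28% the T-box string, 16.8% the RUNX string, 3.89% the ETS string and 7.15% the E-box. The Baiap3 stretch is 64.4% G and C with 9 CG pairs, and the Stx11 stretch 68.7% with 18. A match is a string in the sequence and not a measured binding site.

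Total counts ranged from 10589915 to 18456404 per library. Levels are CPM (counts of a gene relative to the TMM-scaled library total), and folds are log2 of Hhex KO over Cre control ± standard error. The edgeR quasi-likelihood test over 12161 genes gave the adjusted p-values (n = 4 and n = 3). The Hhex transcript itself was lower in every Hhex KO library, at 54.2 to 64.8 CPM against 93.5 to 96.1 CPM (log2 fold change -0.70 ± 0.10, adjusted p = 0.00768, and 0.0516 without Cre control replicate 1); it was not absent, and reads outside a deleted stretch would still be counted. All 8 NK cell markers were tested and 0 were called by edgeR (their summed level ranged from 7173 to 8352 CPM over the controls and from 6279 to 7794 CPM over Hhex KO). All 7 markers of type 1 innate lymphoid cells (ILC1), relatives of NK cells, were called higher. Their summed level was 450.3 to 601 CPM in Hhex KO against 76.3 to 95.8 CPM in Cre control. Whether the sort, which took CD49b, held any ILC1 was not tested. T cell markers summed to 55.2 to 83.0 CPM over the controls and 77.7 to 149 CPM over Hhex KO, with 0 of 6 tested called. B cell markers summed to 211 to 256 and 240.0 to 404 CPM, with 1 of 3 tested called (Cd79b, higher). None of the listed markers was at 0 in all 7 libraries. Hhex KO replicate 2 stood apart in neutrophil markers (311 CPM, where the other 3 Hhex KO libraries had 13.1 to 59.8 CPM and the controls 16.2 to 37.2 CPM) and in monocyte markers (243 CPM against 7.26 to 123.5 CPM in all others). The Hhex KO libraries also fell into pairs, replicate 1 with 4 and replicate 2 with 3: the chi-square per degree of freedom between libraries was 28.3 and 11.2 within the pairs and 69.2 to 78.5 between them. Malat1, a nuclear RNA, was at 918 and 650 CPM in Hhex KO replicates 1 and 4, at 155 and 138 CPM in replicates 2 and 3, and at 243 to 619 CPM in Cre control.

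Baiap3 (ENSMUSG00000047507.12, chromosome 17, 25242659 to 25256364, minus strand) went from a well-expressed transcript to a handful of reads. The Cre control libraries held 2932, 2108 and 3519 of its reads, in replicate order, and the Hhex KO libraries held 4, 2, 2 and 1. On the CPM scale these were 219.7, 185 and 190.2 against 0.259, 0.115, 0.118 and 0.0886. Every Hhex KO library was near 0, and the groups lay far apart. The pooled level was 1346-fold lower (95% exact binomial interval 709 to 2945, counting error only). Taken singly, the Hhex KO libraries gave ratios of 765 (interval 299 to 2807), 1729 (478 to 14280), 1681 (465 to 13880) and 2236 (401 to 88340), intervals that overlap, so no difference among them was detectable at these counts. Replicates 1 and 4, a pair in other genes, held its highest and its lowest level. In bulk RNA, fewer cells of a type and less RNA per cell cannot be told apart, and the ILC1 markers moved in the opposite direction in the same libraries; their part in the fall was not tested.

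No other gene of the table had this pattern. With every Cre control library at 10 CPM or more and every Hhex KO library below 1 CPM, 1 of 53379 genes qualified, and it was Baiap3. A looser form, chosen after the values were seen, kept the control minimum and asked that every Hhex KO library be at least 10-fold below every Cre control library; again 1 gene qualified. That Baiap3 leads is a result of how it was picked.

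**Figure D1:**
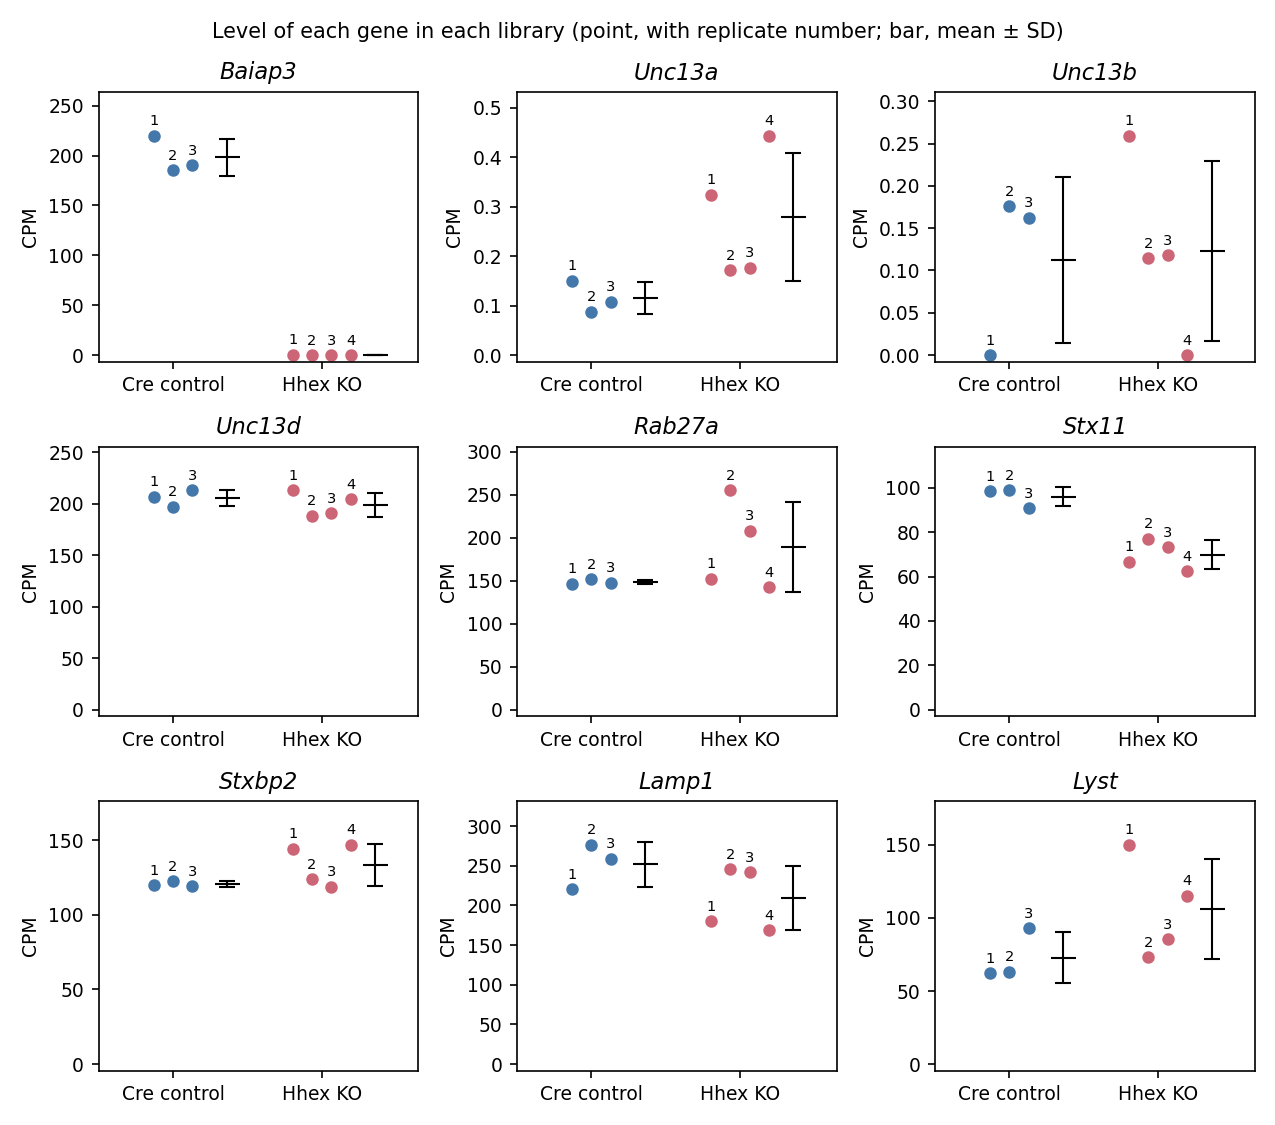
Level in CPM (y axis, from 0) of the 9 genes with a row in the table, 1 point per library with its replicate number, for 3 Cre control (blue) and 4 Hhex KO (red) libraries; bars are mean ± SD. Baiap3 drops to the axis in all 4 Hhex KO libraries, Unc13d stays between 188 and 213 CPM in all 7, and in Rab27a, Lamp1, Stxbp2 and Lyst Hhex KO replicates 1 and 4 lie apart from 2 and 3.

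Unc13d (ENSMUSG00000057948.12, chromosome 11, 116062095 to 116077961), the Munc13 homolog that primes cytotoxic granules, was nearly level across the study. It was at 207, 197 and 213 CPM in Cre control and at 213, 188, 190.5 and 205 CPM in Hhex KO. The groups overlapped, with replicates 1 and 4 the higher of the Hhex KO libraries. Its log2 fold change was -0.05 ± 0.10 (adjusted p = 0.889), and its sign was opposite without Hhex KO replicates 2 and 3 (0.03 ± 0.11).

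The neuronal homologs Unc13a and Unc13b, which prime synaptic vesicles, were at the edge of detection. Unc13a had 2, 1 and 2 reads in the controls and 5, 3, 3 and 5 reads in the Hhex KO libraries. Its summed ratio, Cre control over Hhex KO, was 0.442 with an exact binomial interval of 0.127 to 1.26 that includes equal levels. It also shares 495 bases with Colgalt1 on the other strand, whose 15484 reads could contribute a few if strand was not used. Unc13b had counts of 0, 2 and 3 against 4, 2, 2 and 0, a ratio of 0.885 (interval 0.228 to 3.07). So neither gene held more than 5 reads in any library, in Hhex KO as in Cre control.

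Per kilobase of exon, which allows levels of different genes to be compared, Baiap3 and Unc13d were close in Cre control. Baiap3 stood at 38.8 ± 3.63 CPM per kb (SD, n = 3) and Unc13d at 43.9 ± 1.71. The ratio of Baiap3 to Unc13d was 0.973, 0.862 and 0.818 in the 3 Cre control libraries, and 0.00111, 0.000557, 0.000566 and 0.000396 in the 4 Hhex KO libraries. Baiap3 made up 45.0% to 49.3% of the summed length-scaled level of the 4 homologs in Cre control and 0.0396% to 0.111% in Hhex KO. That sum was 82.8 ± 4.40 CPM per kb in Cre control (SD, n = 3) and 42.6 ± 2.52 in Hhex KO (SD, n = 4), where at least 99.8% of it was Unc13d.

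**Figure D2:**
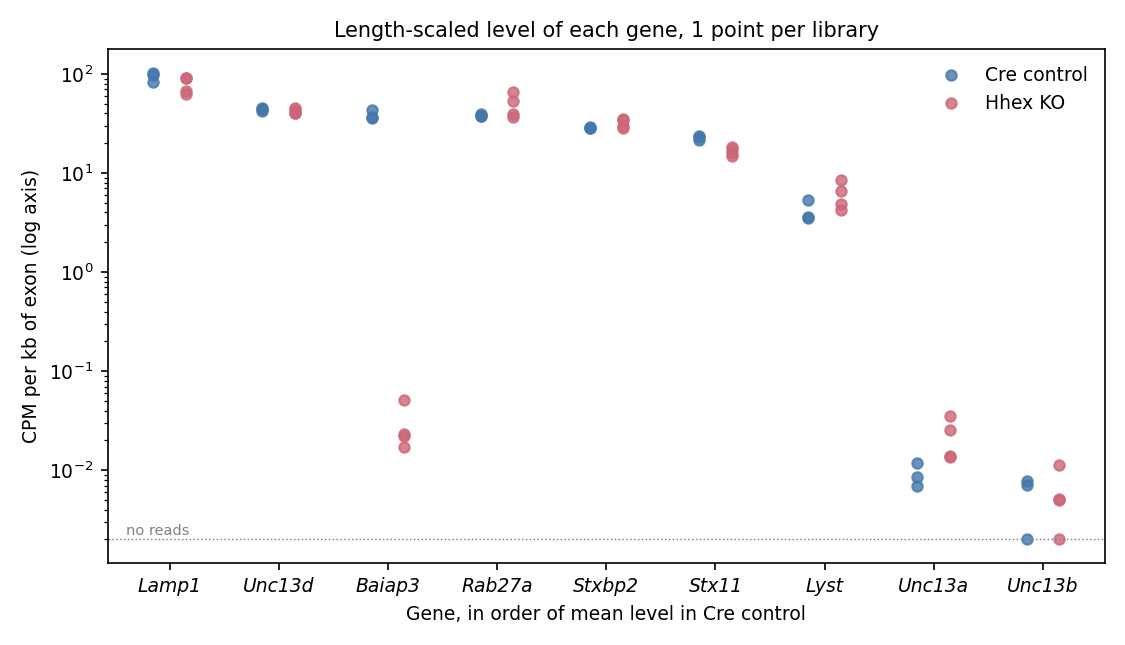
Level in CPM per kilobase of exon (log axis) of the 9 genes, 1 point per library, blue for 3 Cre control and red for 4 Hhex KO libraries, ordered by the Cre control mean; points on the dotted line had no reads. Baiap3 sits beside Unc13d and Rab27a in Cre control and beside Unc13a in Hhex KO.

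In Cre control the order of length-scaled levels was Lamp1 (94.2 ± 10.7 CPM per kb), Unc13d, Baiap3, Rab27a (38.3 ± 0.715), Stxbp2 (29.0 ± 0.443), Stx11 (22.8 ± 1.06) and Lyst (4.17 ± 1.00), with Unc13a and Unc13b at 0.0091 and 0.0050. Unc13d overlapped Baiap3 in range, but stood above it within each Cre control library. Baiap3 and Rab27a overlapped, as did Unc13a and Unc13b, and in neither of these couples was the same gene higher in every library. In Hhex KO the order was Lamp1 (78.1 ± 15.1), Rab27a (48.8 ± 13.5), Unc13d (42.6 ± 2.50), Stxbp2 (32.1 ± 3.39), Stx11 (16.6 ± 1.56), Lyst (6.07 ± 1.96), Baiap3 (0.0284 ± 0.0151), Unc13a (0.0221 ± 0.0103) and Unc13b (0.0054 ± 0.0047). There Lamp1 and Rab27a, Rab27a and Unc13d, and Baiap3 and Unc13a were neighbours whose libraries overlapped in range. Within each Hhex KO library Lamp1 was still above Rab27a. Of all tested genes, 88.7% lay below Baiap3 by this measure in Cre control.

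By edgeR, 0 of the 7 tested members were called higher and 1 lower, Baiap3, for which the contrast was the reason of choice. Across all genes tested, 2.68% were called higher and 1.87% lower, and 19.3% had groups that did not overlap in either direction. An unadjusted edgeR p under 0.05 was held by 2251 of the 12161. Of the 6 other tested members, 0 were called by edgeR and 1 had an unadjusted p under 0.05 (Stx11). With DESeq2 1 of the 6 was called, also Stx11 and lower, and with limma-voom 0 were. Their median log2 fold change was 0.05, beside 0.02 over all genes tested.

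Among the docking genes, Rab27a (ENSMUSG00000032202.11, chromosome 9, 73044854 to 73097629) was at 147, 152 and 147 CPM in Cre control and at 152, 255, 208 and 143 CPM in Hhex KO. Hhex KO replicates 2 and 3 were high, and replicates 1 and 4 lay with the controls. The log2 fold change was 0.35 ± 0.20 (adjusted p = 0.409). It depended on which pair was present: without replicates 1 and 4 it was 0.63 ± 0.10 (adjusted p = 0.00265), and without replicates 2 and 3 it was -0.01 ± 0.11 (adjusted p = 0.98). Without replicate 2, the library with the neutrophil and monocyte markers, it was 0.18 ± 0.16 (adjusted p = 0.671). The part of those markers and of Malat1 in the split was not tested.

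Stx11 (ENSMUSG00000039232.12, chromosome 10, 12938209 to 12964298), the target-membrane SNARE of granule fusion, was at 98.4, 98.9 and 90.9 CPM in Cre control and at 66.6, 77.2, 73.2 and 62.5 CPM in Hhex KO. All 4 Hhex KO libraries lay below all 3 controls, replicates 1 and 4 lowest. The log2 fold change was -0.46 ± 0.11, just outside the threshold (adjusted p = 0.0533). It was past the threshold with DESeq2 (adjusted p = 0.0026), with RLE scaling (0.0444), with a stricter filter on low counts (0.0449) and with limma-voom with sample quality weights (0.0155). Each pair of Hhex KO libraries alone gave the same direction, at -0.36 ± 0.09 without replicates 1 and 4 (adjusted p = 0.0181) and -0.57 ± 0.11 without replicates 2 and 3 (adjusted p = 0.0229). These pairs were chosen after the data were seen. In all, Stx11 was called in 6 of 17 alternatives, with adjusted p up to 0.187 among the 17. It was called in 0 of the 7 fits with 1 library left out.

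Stxbp2 (ENSMUSG00000004626.14, chromosome 8, 3630955 to 3643644), whose product Munc18-2 holds syntaxin 11, was not lower alongside it. Its levels were 119.8, 123 and 119 CPM in Cre control and 144, 124, 119 and 147 CPM in Hhex KO. Here Hhex KO replicates 1 and 4 were the high ones and replicates 2 and 3 lay with the controls. The log2 fold change was 0.15 ± 0.11 (adjusted p = 0.573), and 0.00 ± 0.09 without replicates 1 and 4.

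Lyst (ENSMUSG00000019726.11, chromosome 13, 13590397 to 13778803), which controls the size of lytic granules, was at 62.0, 63.4 and 93.1 CPM in Cre control and at 150.1, 73.3, 85.4 and 115 CPM in Hhex KO. The 2 groups overlapped through Cre control replicate 3. The log2 fold change was 0.54 ± 0.26 (adjusted p = 0.326), with 0.11 ± 0.20 (adjusted p = 0.72) without Hhex KO replicates 1 and 4 and 0.87 ± 0.20 (adjusted p = 0.0404) without replicates 2 and 3.

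Lamp1 (ENSMUSG00000031447.7, chromosome 8, 13159161 to 13175338) encodes CD107a, the lysosomal membrane protein that appears on the surface of degranulating NK cells. It was at 221, 276 and 259 CPM in Cre control and at 179.8, 245, 242 and 169 CPM in Hhex KO. Replicates 1 and 4 were below every control, while replicates 2 and 3 were inside the control range. The log2 fold change was -0.27 ± 0.17 (adjusted p = 0.455), -0.06 ± 0.11 without replicates 1 and 4 and -0.53 ± 0.13 without replicates 2 and 3 (adjusted p = 0.0504).

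The wider pathway was read from 12 lists of exocytosis, granule biogenesis and granule cargo genes. Leaving out the 9 members, 173 of 220 listed genes were tested. Of the 173, 6 were called higher, 4 lower and 163 were not called, with a median log2 fold change of -0.05. Over all 12161 genes tested, 2.68% were called higher and 1.87% lower, with a median of 0.02. The called genes of the lists were spread over 9 lists (Vamp4 stands in 2 of them), with at most 1 in each direction in any list. Several called genes are low in these cells, and for Nbea and Laptm4b a large fold is a change of a few CPM. The largest folds, of Gzmk and Myo5a, went from means of 5.25 and 5.07 CPM to 34.3 and 20.2 CPM.

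Among 31 tested SNARE proteins, the fusion machinery, 1 was called higher and 0 lower by edgeR. Of the 31, 5 had an unadjusted p under 0.05 and 23 a negative log2 fold change. Over the 12161 genes tested, 2251 and 5755 did. The count of SNARE proteins called lower depended on the fit: it was 3 with DESeq2 (Stx3, Stx7 and Stx11, of which Stx7 was named after its values were seen), 0 with limma-voom and 4 with sample quality weights. It was 7 without Hhex KO replicates 1 and 4 and 3 without replicates 2 and 3. SNARE proteins called higher numbered 1 and 3 in those last 2 fits. Stx16 and Vamp1, named after their values were seen, were called lower in the first of them and higher in the second. Over all genes, DESeq2 called 469 of 12161 lower, limma-voom 251 and sample quality weights 1325. Without replicates 1 and 4 it was 1790 of 12525, and without replicates 2 and 3 it was 331 of 12192. The gene called higher was Vamp4, a vesicle SNARE of the trans-Golgi network and endosomes, the compartment in which BAIAP3 has been placed. Vamp4 was at 42.0, 42.3 and 39.4 CPM in Cre control and at 59.0, 81.0, 74.5 and 75.1 CPM in Hhex KO, with no overlap. Its log2 fold change was 0.81 ± 0.13 (adjusted p = 0.0121). The call was lost without any 1 Cre control library (adjusted p = 0.0639, 0.0535 and 0.0714 without replicates 1, 2 and 3). Of the other 14 tested genes of endosome to Golgi retrieval, 0 were called by edgeR and 0 had an unadjusted p under 0.05. That list includes the Vamp4 partner Vti1a (-0.23 ± 0.12) and the tethering subunit Vps52 (0.20 ± 0.12). Stx3, a syntaxin of granule exocytosis in other blood cells, was at 8.10 to 11.5 CPM against 3.83 to 6.55 CPM (log2 fold change -0.85 ± 0.22, adjusted p = 0.0708, and 0.0194 with DESeq2).

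Of 20 tested secretory Rab GTPases and effectors, 1 rose and 1 fell. Rab37, a GTPase of secretory vesicles, fell in every library, from 185, 178 and 169 CPM to 95.5, 87.1, 94.9 and 98.4 CPM. The groups were far apart for their spread, the log2 fold change was -0.92 ± 0.10 (adjusted p = 0.00177), and the call held in all 17 alternatives run. Sytl1, a synaptotagmin-like effector of Rab27, rose from 3.67, 4.58 and 6.05 CPM to 13.0, 9.22, 13.4 and 15.5 CPM. Its log2 fold change was 1.41 ± 0.24 (adjusted p = 0.0154, but 0.0866 and 0.0696 without Cre control replicates 1 and 2). Chml, an escort protein for Rab prenylation, was at 3.73 to 3.97 CPM against 5.01 to 7.97 CPM (adjusted p = 0.145).

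Of 3 tested calcium sensors 1 was called by edgeR, and of 9 exocyst subunits, which tether vesicles, also 1. Syt11, a synaptotagmin that does not sense calcium, fell from 49.6, 63.8 and 55.6 CPM to 32.7, 37.1, 37.4 and 27.9 CPM, or -0.74 ± 0.14 on the log2 scale (adjusted p = 0.0236). The other tested genes of its list, Esyt1 and Esyt2, extended synaptotagmins at membrane contacts, had log2 fold changes of 0.03 ± 0.18 and 0.09 ± 0.12, signs that were not stable across the alternatives. Exoc6, 1 of 9 exocyst subunits, fell by 0.50 ± 0.11 on the log2 scale (adjusted p = 0.0334). Its call was lost in 8 of 17 alternatives, 6 of them with 1 library left out. For the subunits Exoc4 and Exoc7 the log2 fold changes were -0.30 ± 0.13 and -0.21 ± 0.09. Of the 9 subunits, 8 had negative log2 fold changes and 3 lay lower without overlap. Over the 12161 genes tested, these counts were 5755 and 1214. Among 14 tested SM proteins and SNARE regulators 0 were called by edgeR and 1 had an unadjusted p under 0.05. Stxbp5, tomosyn, had a log2 fold change of -0.16 ± 0.11 and Scfd1, a Golgi SM protein, -0.17 ± 0.12. Cadps2, a secretory vesicle priming protein of the CAPS family, was at 0.375 to 0.792 CPM against 0.886 to 2.06 CPM (adjusted p = 0.20).

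**Figure D3:**
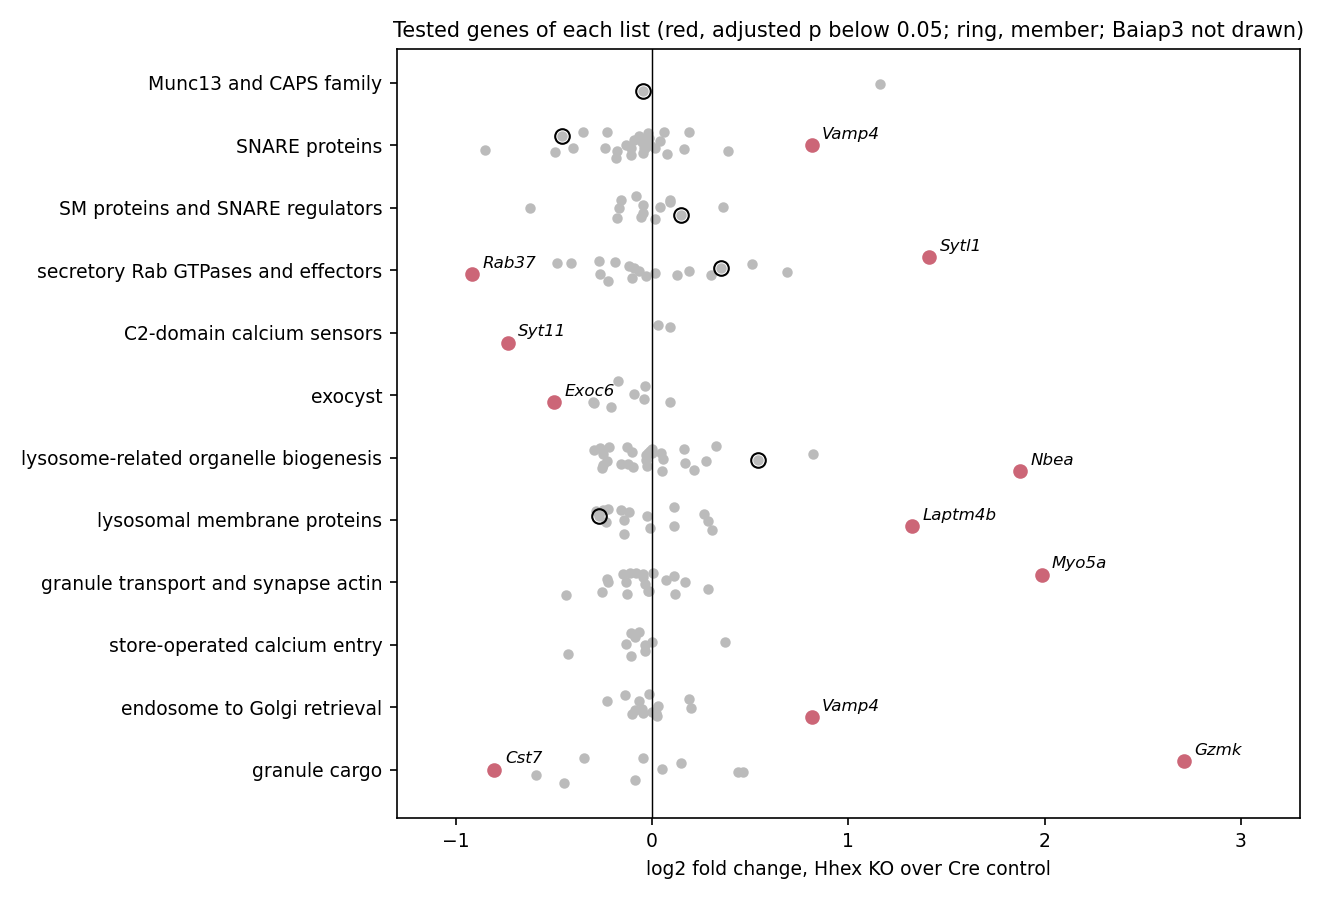
Log2 fold change, Hhex KO over Cre control (x axis), of each tested gene of the 12 lists (rows; vertical scatter has no meaning), grey for not called, red and named for adjusted p below 0.05, ringed for a member; Baiap3 is left out because its fitted fold rests on 9 reads. Most grey points lie close to 0, and the 10 named genes lie between -0.92 and 2.71.

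In the granule biogenesis and transport lists edgeR called 1 gene higher and 0 lower per list. With sample quality weights 3 biogenesis, 1 lysosomal membrane and 2 transport genes were called lower, and 2, 3 and 1 higher. Without Hhex KO replicates 1 and 4 these counts were 6, 3 and 5 lower, and 2, 3 and 2 higher. Over all genes, sample quality weights called 1325 of 12161 lower and 1534 higher. Without replicates 1 and 4 it was 1790 of 12525 lower and 1754 higher. Of 30 tested genes of lysosome-related organelle biogenesis 1 rose, Nbea, a BEACH-domain relative of Lyst at low level, from 0.616 to 0.974 CPM to 2.12 to 3.90 CPM (log2 fold change 1.88 ± 0.35, adjusted p = 0.0205). Hps4, a subunit of a Rab-activating complex, had 0.28 ± 0.13. Of 17 lysosomal membrane proteins 1 rose, Laptm4b, from 1.03 to 1.80 CPM to 2.75 to 3.67 CPM (1.33 ± 0.29, adjusted p = 0.0359), while Scarb2 (0.30 ± 0.12) and Tpcn1 (-0.22 ± 0.11) were not called. Of 21 genes of granule transport and synapse actin 1 rose, Myo5a, the myosin that carries Rab27a-bound organelles in melanocytes. Myo5a went from 4.72, 4.66 and 5.84 CPM to 28.8, 15.1, 12.5 and 24.4 CPM, again with Hhex KO replicates 1 and 4 above 2 and 3 (1.98 ± 0.31, adjusted p = 0.0111). Arl8a, a lysosomal GTPase that recruits kinesin, was at 75.1 to 79.0 CPM against 49.9 to 62.7 CPM (-0.44 ± 0.11, adjusted p = 0.0604, and past the threshold with DESeq2 at 0.00907), and the kinesin gene Kif5b had -0.23 ± 0.14. Without 1 Cre control library the calls of Nbea, Laptm4b, Myo5a and Syt11 were lost, at adjusted p of 0.0507 to 0.169. The calls of Nbea and Syt11 were lost without Hhex KO replicate 1 as well (adjusted p = 0.0502 and 0.0504), and that of Laptm4b without Hhex KO replicates 1, 2 or 3 (adjusted p = 0.0713 to 0.0923) or without replicates 2 and 3 together (0.0726). Of 10 genes of store-operated calcium entry, which triggers release, 0 were called by edgeR and 0 had an unadjusted p under 0.05; Itpr3 (-0.43 ± 0.27), Plcg1 (0.37 ± 0.29, of unstable sign) and Stim2 (-0.11 ± 0.11) had the smallest p.

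Of 11 granule cargo genes, edgeR called 1 higher and 1 lower. Gzmk, a granzyme, rose from 5.03 to 5.54 CPM to 25.5 to 40.4 CPM, and Cst7, an inhibitor of granule cathepsins, fell from 217.5 to 275.5 CPM to 121 to 175 CPM (adjusted p = 0.000214 and 0.0285). Gzmb, granzyme B, was at 986 to 1245 CPM against 696 to 867 CPM with no overlap (-0.59 ± 0.14, adjusted p = 0.0539). Gzmb was past the threshold with RLE scaling (adjusted p = 0.0487), DESeq2 (0.000573), sample quality weights (0.0183) and without either pair of Hhex KO libraries (0.0132 without replicates 1 and 4, 0.0364 without replicates 2 and 3). Those were 5 of 17 alternatives, with adjusted p up to 0.215 among the 17. Gzmb was called in 0 of the 7 fits with 1 library left out. The Cst7 call was lost in 5 of the 7 fits with 1 library left out (adjusted p 0.0549 to 0.121).

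Over the 7 libraries, the genes whose log2 levels followed Baiap3 most closely were Pdgfb (Pearson r = 0.996), Rab6b (0.996), Pald1 (0.993), Sfxn2 (0.992) and Rab37 (0.992). These coefficients describe 7 points in 2 groups and mostly reflect the step between the groups, with depth and scaling shared by all genes. The step differed widely in size. Rab6b, a Rab GTPase of the Golgi, was at 63.1 to 67.1 CPM over the controls and 25.5 to 27.9 CPM over Hhex KO. Sfxn2, a mitochondrial sideroflexin, was at 15.7 to 17.7 against 3.04 to 4.47 CPM, and Pald1, paladin, at 71.2 to 73.5 against 39.2 to 43.5 CPM. Pdgfb, a growth factor chain, was at 234 to 243 against 177 to 180.4 CPM, the smallest step of the 5.

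On chromosome 17, the tested neighbours of Baiap3 named here kept reads in every Hhex KO library, but Gnptg was lower there. Among the nearest protein-coding genes, BC003965, Unkl, Gnptg and Tsr3 were tested, and 1 of these 4, Gnptg, was called. Others were low: Gm38655, Prss28, Prss29 and Tpsab1 had 0 reads in every library, and Prss34 reached at most 1.66 CPM. Gnptg, whose product is a subunit of the enzyme that tags lysosomal hydrolases with mannose 6-phosphate, lies 2535 bases from Baiap3 (25233331 to 25240124). It was at 96.8, 96.4 and 86.2 CPM in Cre control and at 43.4, 48.5, 46.2 and 52.8 CPM in Hhex KO. The groups did not overlap, the log2 fold change was -0.97 ± 0.11 (adjusted p = 0.00215), and the call held in all 17 alternatives.

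**Figure D4:**
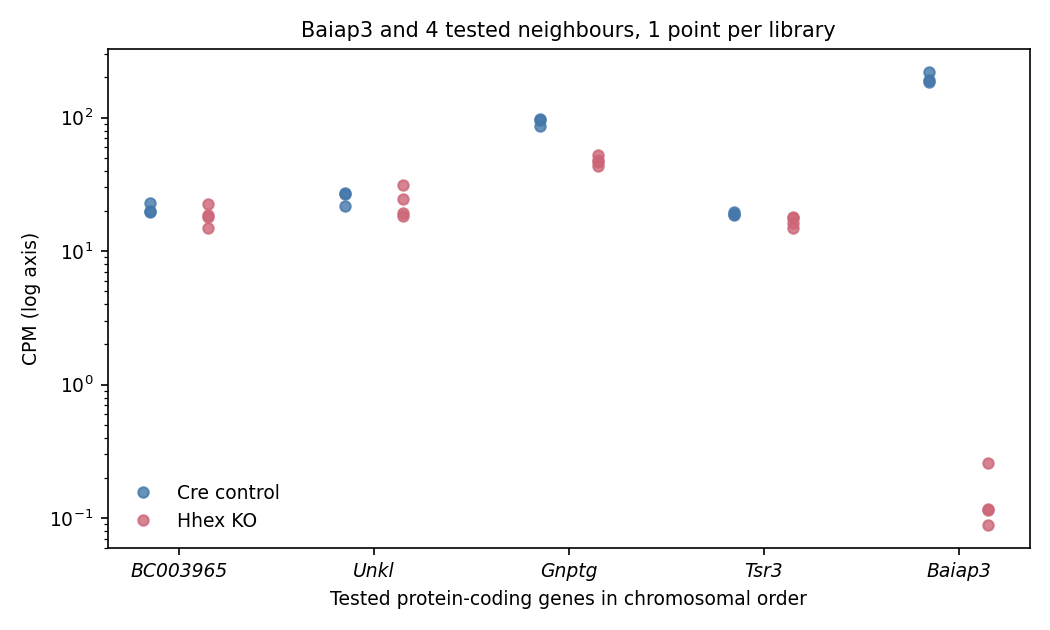
Level in CPM (log axis) of Baiap3 and 4 tested protein-coding neighbours in chromosomal order, 1 point per library, blue for 3 Cre control and red for 4 Hhex KO libraries. Baiap3 is the gene that falls below 1 CPM, and Gnptg steps down to 43.4 to 52.8 CPM.

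Tsr3, a ribosomal RNA modifying enzyme, lies between Gnptg and Baiap3 on the opposite strand and shares 140 bases with the end of Baiap3. It was at 19.8, 18.8 and 18.6 CPM in Cre control and at 14.8, 16.2, 17.6 and 18.0 CPM in Hhex KO, with no overlap but a log2 fold change of -0.20 ± 0.13 (adjusted p = 0.462). Beyond Gnptg, Unkl, a zinc finger protein gene, had -0.11 ± 0.20 and BC003965 -0.17 ± 0.16. The sign of Unkl was opposite under at least 1 alternative.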

How the data were processed

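The authors deposited raw read counts per gene for 7 libraries, with no normalization; STAR, featureCounts and the mm10 build are named in the submitters' processing notes, without versions; the sources used here do not give the strand setting. Library kits mark strand, per the labels' protocols. Identifiers were matched to symbols without their version (99.8% matched). Positions and exon lengths are from GENCODE M21 on GRCm38 (mm10), 1-based.

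Counts were tested with edgeR 4.0.16 in R 4.3.3: genes kept by expression filter (minimum count 10, minimum total 15), TMM scaling, quasi-likelihood F test with robust dispersions, no covariate, Benjamini-Hochberg adjustment over 12161 genes, called below 0.05. The standard error is the fold divided by the square root of F. Intervals on count ratios are exact binomial at 95%.

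The genes and lists were chosen with earlier results of these data known. Named genes are the members, up to 3 genes of smallest p and all called genes of each list, the 5 genes most like Baiap3 (Pearson r of log2 CPM + 0.5, average log2 CPM of at least 2, predicted names left out), its 5 neighbours on each side, and Hhex. The fit was repeated with DESeq2 1.42.0, with limma-voom (from limma 3.58.1) plain and with sample quality weights, after RLE or upper-quartile scaling, without a filter, with a filter of 10 CPM in 3 libraries, with a replicate block and with libraries left out. Replicate libraries differed by a chi-square per degree of freedom of 11.2 or more, so none was counted as a repeat. The fit was also tested on simulated data. Some genes that this rule names are not reported here.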

Additional observations from a re-analysis of the deposited data

Results flagged for a closer look

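In 2 of the named genes 1 Hhex KO library stood apart from the other 3 by its gap relative to the range of the group, among 48 genes checked; chance gives such a gap in about 5% of groups. For Stxbp5 it was replicate 1, at 85.48 CPM against 70.5 to 72.6 CPM in the others and 81.8 to 85.7 CPM in Cre control. For Laptm4b it was replicate 4, at 2.745 CPM against 3.53 to 3.67 CPM in the others and 1.03 to 1.80 CPM in Cre control.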

How the results depend on the processing

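Over all genes tested, 326 were called higher and 228 lower. DESeq2 gave 625 and 469, limma-voom with sample quality weights 1534 and 1325, and the stricter filter 186 higher. The fits with 1 library left out gave 91 to 527 higher and 50 to 291 lower. Without Hhex KO replicates 1 and 4 there were 1754 higher and 1790 lower, and without replicates 2 and 3 there were 548 higher; these pairs were chosen after seeing the data.

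Members called lower numbered 1 with 1 library left out in each case and 2 (Baiap3 and Stx11) with RLE scaling, the stricter filter, DESeq2, limma-voom with sample quality weights and each pair left out. Members called higher numbered 0 with 1 library left out (0 to 0) and 1 with limma-voom with sample quality weights (Rab27a), without replicates 1 and 4 (Rab27a) and without replicates 2 and 3 (Lyst).

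The main fit did not pair libraries by replicate number. Deviations from the group means correlated at 0.15, 0.57 and -0.08 for numbers 1, 2 and 3. For unlike numbers the correlations ran from -0.57 to 0.49. With so few libraries, and the Hhex KO libraries split among themselves, these values cannot tell whether the numbers pair libraries. With the replicate block on the 6 libraries numbered 1 to 3, 499 genes were called higher and 275 lower, Pdgfb was not called (adjusted p = 0.062) and Stx3 was (0.0424); 2 SNARE proteins were then called lower.

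Of 47 named genes beside Baiap3, 16 were called; 6 kept the call in every alternative run and 10 lost it in at least 1. Many of the 47 were named for a small p, a call or likeness to Baiap3 in these data. The share called is thus a result of that choice. Among the 6, Rab6b, Pald1, Sfxn2 and Rab37 were the genes most like Baiap3. Over all 12161 genes tested, 2.68% were called higher and 1.87% lower. No called gene changed sign, and 14 not called were called in at least 1 alternative. Of the 12 lists, secretory Rab genes called higher and lower went from 1 and 1 to 3 and 2 with sample quality weights, and to 3 and 3 without Hhex KO replicates 1 and 4; store-operated calcium entry genes called lower went from 0 to 1 and 3.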
